A study of Homo sapiens with 36 samples.

Results

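Overexpression of the isoleucine tRNA with the UAU anticodon was followed in the total RNA of MDA-MB-231 cells, a human triple-negative breast cancer line with a mesenchymal expression pattern. The members were 6 of the 36 libraries of the series, taken by their labels: 3 libraries (A, B and C) of the UAU line, and 3 of the control line. Cells of the UAU line carried a CRISPR interference (CRISPRi) construct aimed at eGFP, a sequence that human cells lack, together with a construct for tRNAIleUAU. Cells of the control line carried the same eGFP CRISPRi construct with a control overexpression construct. Cells of the isoswitch line carried CRISPRi against the isoleucine GAU tRNA together with tRNAIleUAU, and cells of the GAUi line carried that CRISPRi with the control construct. These last 2 lines are used only to set the same overexpression beside its effect on another background. All cells of every line were exposed to 100 ug/mL cycloheximide, an inhibitor of translation elongation, for 5 minutes before they were frozen, so no library shows RNA of untreated cells. The labels name a xenograft cell line as the source while the growth protocol describes culture in dishes, and whether the cells had grown in an animal is not stated. The labels do not say whether a line came from 1 clone, nor whether the letters mark separate cultures, so a difference between the constructs and any other difference between the lines cannot be told apart, and the p-values reflect no more than the spread among 3 libraries of a line, which may be technical.

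A tRNA reads its codons through the anticodon. The UAU isoleucine tRNA reads AUA, a codon that is rare in human mRNAs, and the GAU isoleucine tRNA reads AUU and AUC. Changing the supply of such a tRNA is known to alter the translation of mRNAs that use its codons. Total RNA, the fraction described here, shows transcript levels rather than ribosome loading, and the comparison asks which mRNA levels differ in the line that carries the added tRNA. The tRNA itself was not measured, because the libraries start from poly(A) tails.

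The 6 libraries held between 6735993 and 7353754 counts, and 15348 to 15591 genes were detected in each. In a principal component analysis of the 6 libraries the first component, with 43.1% of the variance, separated the UAU libraries (-12.79 to -5.28) from the control libraries (8.43 to 9.41). UAU library A stood apart from the other 2 on the second component (11.41, against -2.53 and -5.33). The 9 mesenchymal markers of MDA-MB-231 were all above 1 CPM on average, and their summed level was 6240 to 7160 CPM in UAU libraries and 5790 to 6060 CPM in control libraries, with VIM as the most abundant. The 12 luminal markers summed to 571 to 599 CPM in UAU libraries and 585 to 611 CPM in control libraries, and 7 of them were above 1 CPM. Most of the sum came from KRT18 (mean 266 CPM in UAU and 304 CPM in control), KRT19 (170 and 164 CPM) and XBP1 (67.7 and 45.6 CPM). GATA3 (16.7 and 16.8 CPM) and EPCAM (13.9 and 15.9 CPM) were lower, and ESR1 had a mean of 0 CPM in UAU libraries and 0.0493 CPM in control libraries. Of 10 fibroblast markers 4 were at 0 in all 6 libraries (COL3A1, DCN, FAP and POSTN), and the list summed to 2.32 to 3.96 CPM in UAU libraries and 2.67 to 3.7 CPM in control libraries. Of 10 leukocyte markers 6 were at 0 in all 6 libraries (among them CD3E, CD3D, MS4A1, ITGAM and TYROBP), and the list summed to 6.56 to 10.4 CPM in UAU libraries and 5.34 to 9.32 CPM in control libraries. The 10 endothelial markers, with CDH5 and CLDN5 at 0, summed to 161 to 189 CPM in UAU libraries and 153 to 164 CPM in control libraries, most of it from ESAM (157 and 140 CPM). The part of these marker levels in the results was not tested.

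Between the UAU and the control line, 916 of 12021 tested genes differed at an adjusted p under 0.05 (7.62%), in edgeR's quasi-likelihood test with Benjamini-Hochberg adjustment over all genes. Of these, 387 were higher in the UAU line (3.22% of the genes tested) and 529 were lower (4.40%), and these are the genes described as called. Most changes were small, with a median size of 0.325 on the log2 scale among called genes. Only 128 called genes differed by 1.5-fold or more, and 24 by a log2 fold change of 1 or more in size. The median log2 fold change over all tested genes was 0.007. Groups did not overlap in 3090 genes (25.7%). The 12 largest rises and the 12 largest falls were taken from called genes whose groups did not overlap, with INSIG1, HMGCS1, MVK, SCD and LPIN1 among them. The separation of their libraries follows from that choice and is no further result. The other genes named below were taken without this condition. Of the 916 called genes 834 had no overlap and an average of 3 log2 CPM or more, so separation adds little to a call. DESeq2 called 634 genes (5.27%), 236 higher and 398 lower. With the spread estimated over all 12 total RNA libraries the count was 113 of 12357 genes (0.914%), 43 higher and 70 lower, and 112 of those 113 were among the 916. The libraries of the GAUi line, which enter that fit, differed from each other far more than those of the UAU and control lines: the chi-square per degree of freedom between 2 libraries was 8.53 to 23.8 within GAUi, against 2.3 to 3.73 within UAU and 1.86 to 2.41 within control. Leaving out 1 library gave 1291 called genes without UAU library A, 607 without UAU library B, 435 without UAU library C, 479 without control library A, 426 without control library B and 574 without control library C.

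**Figure D1:**
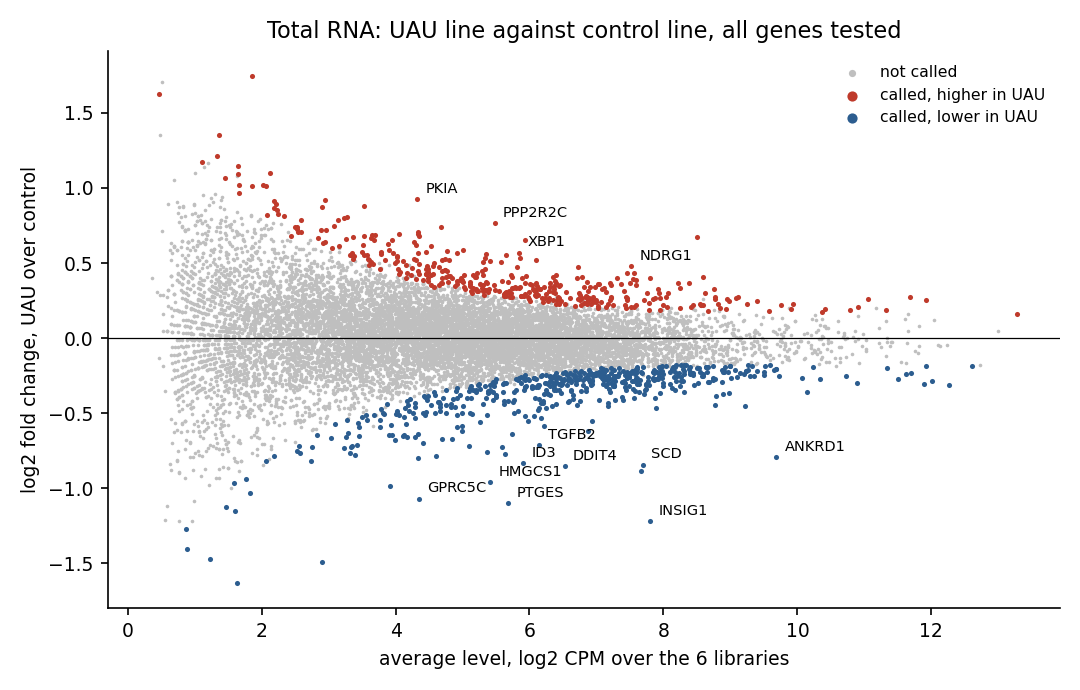
Log2 fold change of UAU over control (vertical axis) against the average level in log2 CPM (horizontal axis) for the 12021 genes tested, 1 point per gene. Red and blue points are the 387 genes called higher and the 529 called lower, and most lie within 1 log2 unit of 0, with INSIG1 (-1.22) the deepest of the called genes with an average of 3 log2 CPM or more.

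Genes of sterol and fatty acid synthesis were among those that fell furthest. Cells make cholesterol through the mevalonate pathway, and its enzymes are switched on together by SREBP transcription factors, which SCAP carries out of the endoplasmic reticulum when sterol is scarce and which INSIG proteins hold back when sterol is plentiful. INSIG1, on chromosome 7 (155297878 to 155310235, GRCh38.p14), is both the retention protein and a gene that SREBP switches on. Its level was 138, 131 and 129 CPM in UAU libraries A, B and C, against 310.0, 300.03 and 314 CPM in control libraries. The 3 UAU libraries lay far below all control libraries, and the log2 fold change was -1.22 (SE 0.06, adjusted p = 1.25e-13), the smallest p of the comparison. The GAUi line, which carried the control overexpression construct, averaged 164 CPM of INSIG1, also below the control line. Across the 3 sterol lists, 13 of 37 tested genes were called lower (35.1%, against 4.40% of all genes) and 0 were called higher. Of the 37, 29 had a log2 fold change below 0, and the median was -0.155. Because members and lists were chosen with results of these data known, and the fall of cholesterol genes had been seen, these counts describe the lists and are not independent evidence of a direction.

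Among the sensors and carriers of sterol, 4 of 15 tested genes were called lower (26.7%, against 4.40% of all genes) and 0 higher. The median log2 fold change was -0.105. Beside INSIG1 the sterol transport protein STARD4 fell, with 22.6, 19.8 and 23.4 CPM in UAU libraries, against 32.3, 31.5 and 28.8 CPM in control libraries (log2 fold change -0.50, SE 0.11, adjusted p = 0.0041). STARD4 lost its call in the fit over 12 libraries (adjusted p = 0.0505). The regulators themselves were not called. SREBF2, which encodes the SREBP that drives cholesterol genes, had 44.6, 39.5 and 41.8 CPM in UAU libraries, against 49.5, 49.6 and 41.1 CPM in control libraries, and the groups overlapped (log2 fold change -0.16, SE 0.09, adjusted p = 0.333). SREBF1 averaged 35.8 ± 2.94 CPM in UAU and 39.8 ± 1.79 CPM in control (SD, n = 3 each; edgeR adjusted p = 0.335), and SCAP averaged 82.7 ± 9.07 CPM in UAU and 82.6 ± 2.73 CPM in control (SD, n = 3 each; edgeR adjusted p = 0.993). INSIG2, the related retention protein, had a log2 fold change of 0.33 (SE 0.16, adjusted p = 0.218). The exporter ABCA1 (-0.11), the lysosomal cholesterol proteins NPC1 (-0.19) and NPC2 (0.02), the esterifying enzyme SOAT1 (-0.01) and the ubiquitin ligase MYLIP (0.12) were not called either, with these log2 fold changes.

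In the mevalonate and squalene branch 5 of 12 genes were called lower (41.7%, against 4.40% of all genes) and 0 higher. The median log2 fold change was -0.212. HMGCS1, which makes HMG-CoA, had 32.3, 27.997 and 25.3 CPM in UAU libraries, against 48.3, 54.7 and 63.4 CPM in control libraries (log2 fold change -0.96, SE 0.10, adjusted p = 1.81e-06). Mevalonate kinase, MVK, had 18.6, 16.7 and 17.1 CPM in UAU libraries, against 29.2, 30.5 and 30.4 CPM in control libraries (-0.78, SE 0.11, adjusted p = 4.52e-05). IDI1, the isopentenyl diphosphate isomerase, had 37.9, 41.2 and 44.5 CPM in UAU libraries, against 67.2, 61.5 and 63.9 CPM in control libraries (-0.64, SE 0.08, adjusted p = 2.05e-05). For these 3 enzymes every UAU library was below every control library, which the way HMGCS1 and MVK were chosen requires. All 3 enzymes stayed called without any 1 library and in the 12-library fit. Squalene synthase, FDFT1, was called at -0.35 (SE 0.08, adjusted p = 0.00722) and was not called without control library B or UAU library B. Without control library B, or without UAU library B, the branch had 3 called genes, and in the 12-library fit it had 3. Further enzymes of the branch were not called: squalene epoxidase SQLE (-0.23), MVD (-0.10), FDPS (-0.03), GGPS1 (-0.07), LSS (-0.20), ACAT2 (-0.09) and PMVK (0.11) had these log2 fold changes.

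Among the late cholesterol enzymes 4 of 10 were called lower (40%, against 4.40% of all genes) and 0 higher. The median log2 fold change was -0.274. MSMO1, a methylsterol oxidase, had 24.5, 26.2 and 24.4 CPM in UAU libraries, against 39.3, 40.1 and 33.3 CPM in control libraries (log2 fold change -0.58, SE 0.10, adjusted p = 0.000582). MSMO1 kept its call without any 1 library and in the 12-library fit (adjusted p = 0.025). NSDHL (-0.32) lost its call when control library A or B was left out, and the sterol isomerase EBP (-0.31) when control library B, control library C or UAU library C was. The lanosterol demethylase CYP51A1 (-0.24) lost its call when any library but UAU library C was left out. The count of called genes in the list was 2 without control library A, 1 without control library B, 2 without control library C, and 1 in the 12-library fit. DHCR7, a late reductase of the pathway, had 33.01, 35.9 and 41.3 CPM in UAU libraries, against 31.9, 37.6 and 37.9 CPM in control libraries, so the groups overlapped (0.04, SE 0.10, adjusted p = 0.879). Of the other members not called, the log2 fold changes were -0.40 for SC5D, -0.35 for HSD17B7, -0.06 for LBR and 0.16 for TM7SF2.

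Fatty acid synthesis and desaturation is driven by the SREBP encoded by SREBF1. Of 22 tested genes of this list 8 were called lower (36.4%, against 4.40% of all genes) and 0 higher. The median log2 fold change was -0.193. SCD, the desaturase that makes oleate, had 151, 144 and 145 CPM in UAU libraries, against 252, 261 and 275 CPM in control libraries (log2 fold change -0.84, SE 0.06, adjusted p = 5.61e-10). LPIN1, a phosphatidate phosphatase, had 16.5, 14.2 and 12.6 CPM in UAU libraries, against 25.99, 27.1 and 22.4 CPM in control libraries (-0.80, SE 0.13, adjusted p = 0.000252). The fatty acid synthase FASN had 76.3, 81.4 and 85.0 CPM in UAU libraries, against 107, 103 and 114 CPM in control libraries (-0.42, SE 0.07, adjusted p = 0.000453). All 3 genes were lower in every UAU library than in any control library, which the way SCD and LPIN1 were chosen requires. ACSL3, an acyl-CoA ligase, averaged 60.9 ± 3.32 CPM in UAU and 82.1 ± 4.36 CPM in control (SD, n = 3 each; log2 fold change -0.43, edgeR adjusted p = 0.000618). The other 4 called genes were acetyl-CoA carboxylase ACACA (-0.44), the desaturases SCD5 (-0.40) and FADS1 (-0.31), and ATP citrate lyase ACLY (-0.23). In the 12-library fit 3 genes of the list were called, SCD, LPIN1 and ACSL3, and FASN was not (adjusted p = 0.0982).

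**Figure D2:**
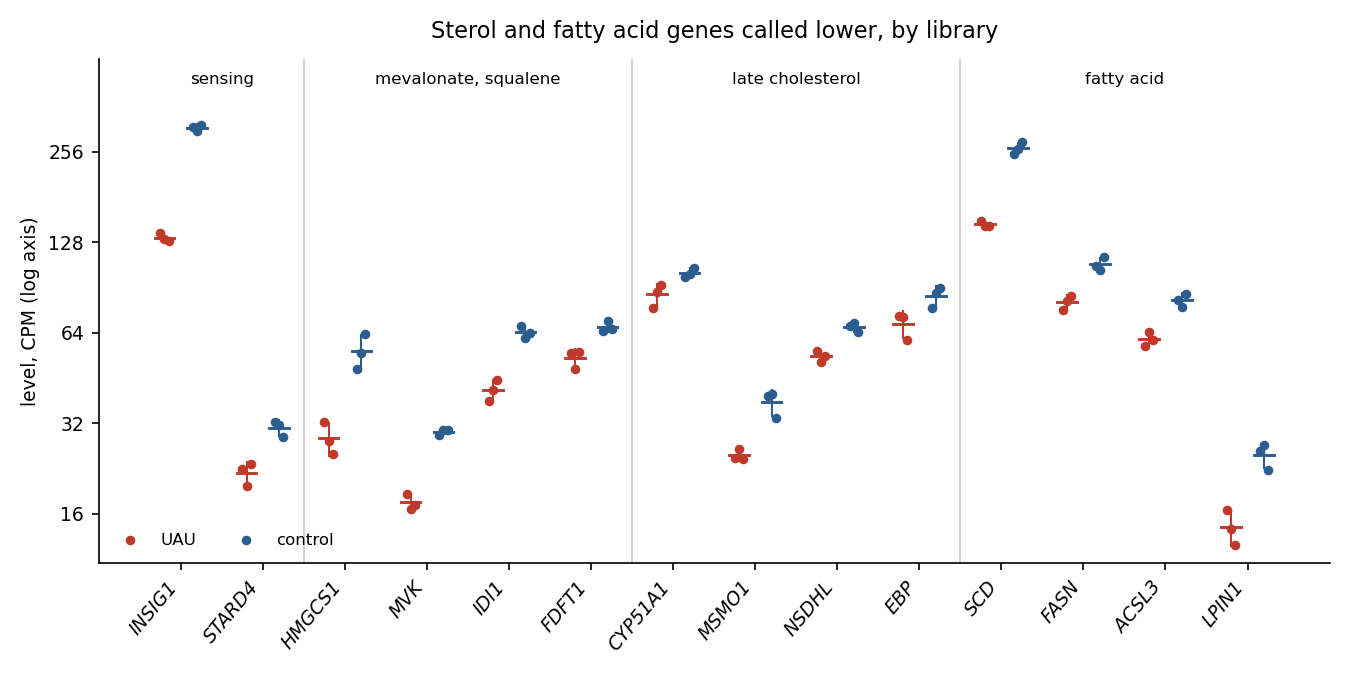
Level in CPM on a log axis for 14 genes called lower, 3 libraries of the UAU line (red, left) and 3 of the control line (blue, right) per gene, with a bar at the mean and a line of 1 SD each way. The groups are apart in every gene shown, widest for INSIG1 (133 CPM in UAU and 308 CPM in control on average) and narrowest for EBP and CYP51A1. The genes were drawn because they were called lower, so this separation is no further result. Of all genes tested 25.7% had no overlap.

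Promoters of sterol genes are known to carry a sterol response element beside boxes for the helper factors NF-Y and Sp1, so the promoter windows of the genes that moved together were read from RefSeq (GRCh38.p14), from 250 bases before to 50 bases after each start. Windows were found for 9 of the 13 called sterol genes, 12 windows in all. The NF-Y box CCAAT, searched on both strands, was in 8 of these 9 genes and in 9 of the 12 windows (75%), against 60.5% of the 38 windows of all tested sterol genes, 35.2% of the 14123 windows of tested genes and 34.6% of all 35116 windows in the table. The GC box GGGCGG was in 8 of the 9 genes and in 11 of the 12 windows (91.7%), against 89.5% for tested sterol genes, 66.2% for tested genes and 45% for all. The sterol response element TCACNCCAC was in 0 of the 12 windows, against 1.07% for tested genes and 1.13% for all, which says only that these letters are not in these windows. Among all genes called lower CCAAT was in 42.9% of 611 windows, and among all genes called higher in 27.1% of 512. The windows of 4 genes are shown, for INSIG1 and for the most changed gene of each of the mevalonate and fatty acid branches with MVK beside them, with CCAAT and GGGCGG matches of either strand in capitals. No match of one motif overlapped a match of the other in them.
INSIG1, chr7:155297628-155297927, plus strand: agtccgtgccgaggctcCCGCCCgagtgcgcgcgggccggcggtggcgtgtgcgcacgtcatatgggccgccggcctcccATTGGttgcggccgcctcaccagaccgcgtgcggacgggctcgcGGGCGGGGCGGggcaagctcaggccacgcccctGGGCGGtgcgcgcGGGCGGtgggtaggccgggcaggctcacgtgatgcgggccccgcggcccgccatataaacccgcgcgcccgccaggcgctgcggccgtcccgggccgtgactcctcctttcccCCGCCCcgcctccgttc
HMGCS1, chr5:43313363-43313662, minus strand: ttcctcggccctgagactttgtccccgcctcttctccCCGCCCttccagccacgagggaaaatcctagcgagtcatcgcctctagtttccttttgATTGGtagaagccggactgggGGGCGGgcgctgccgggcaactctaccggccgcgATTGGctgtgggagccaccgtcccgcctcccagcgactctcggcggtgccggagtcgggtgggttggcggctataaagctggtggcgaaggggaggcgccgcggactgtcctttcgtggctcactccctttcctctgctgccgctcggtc
MVK, chr12:109573544-109573843, plus strand: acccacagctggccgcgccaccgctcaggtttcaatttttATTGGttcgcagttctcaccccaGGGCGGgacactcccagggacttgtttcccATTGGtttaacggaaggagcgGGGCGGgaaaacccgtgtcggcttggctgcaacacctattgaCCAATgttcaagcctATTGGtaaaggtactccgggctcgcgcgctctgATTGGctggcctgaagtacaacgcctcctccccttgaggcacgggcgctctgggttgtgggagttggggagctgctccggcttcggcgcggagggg
SCD, chr10:100346983-100347282, plus strand: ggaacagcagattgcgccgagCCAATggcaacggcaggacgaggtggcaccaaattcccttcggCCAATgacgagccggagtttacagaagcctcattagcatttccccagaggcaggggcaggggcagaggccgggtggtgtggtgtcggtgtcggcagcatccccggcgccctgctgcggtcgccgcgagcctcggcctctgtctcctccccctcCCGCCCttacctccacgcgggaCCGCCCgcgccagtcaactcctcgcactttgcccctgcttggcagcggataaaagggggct
INSIG1 held 1 CCAAT and 6 GC box matches, HMGCS1 2 and 2 in the window shown, MVK 5 and 2, and SCD 2 and 2. A match is a description of the letters in the window and says nothing of a factor bound there.

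A few genes of amino acid sensing were lower in the UAU line. The transcription factor ATF4 rises at the protein level when uncharged tRNA accumulates and switches on amino acid transporters, synthetases and stress regulators. Of 29 tested ATF4 targets 6 were called lower (20.7%, against 4.40% of all genes) and 0 higher, yet 20 of the 29 had a log2 fold change above 0 and the median was 0.079. DDIT4, an inhibitor of the growth regulator mTORC1, had 71.9, 63.5 and 59.7 CPM in UAU libraries, against 118, 111 and 123 CPM in control libraries (log2 fold change -0.85, SE 0.08, adjusted p = 3.02e-08). ATF5 had 65.9, 54.2 and 55.9 CPM in UAU libraries, against 90.6, 89.4 and 83.7 CPM in control libraries (-0.58, SE 0.08, adjusted p = 4.52e-05). Both were lower in every UAU library, which the way DDIT4 was chosen requires. The amino acid transporters SLC38A2 (-0.29, adjusted p = 0.00319), SLC7A11 (-0.29, adjusted p = 0.0041) and SLC7A5 (-0.27, adjusted p = 0.0148), and ATF4 itself (-0.22, adjusted p = 0.0461, with overlapping groups), were called with smaller changes, which the 12-library fit did not call. SLC7A11 was not called without control library A, and SLC7A5 not without control library B, UAU library B or UAU library C. The pro-apoptotic target CHAC1 had the highest log2 fold change of the list, 0.49, and was not called (adjusted p = 0.133).

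IARS, the cytosolic synthetase that charges isoleucine tRNAs, had 60.4, 62.5 and 74.8 CPM in UAU libraries, against 64.1, 63.2 and 60.2 CPM in control libraries, and the groups overlapped (log2 fold change 0.08, SE 0.08, adjusted p = 0.656). Of 20 aminoacyl-tRNA synthetases 1 was called higher (5%, against 3.22% of all genes), the alanyl synthetase AARS with 72.8, 74.4 and 70.9 CPM in UAU libraries, against 53.5, 57.1 and 59.9 CPM in control libraries (0.35, SE 0.08, adjusted p = 0.0041; 0.0987 in the 12-library fit), and 0 were called lower. Of 58 genes of tRNA transcription, processing and modification 1 was called lower (1.72%, against 4.40% of all genes), the methyltransferase subunit TRMT6 (-0.23, adjusted p = 0.039), and this call was kept only without UAU library A, where 2 genes of the list were called lower and 1 higher. The median of that list was -0.008. Branched-chain amino acid uptake and breakdown had 1 of 28 genes called lower, SLC7A5 (3.57%, against 4.40% of all genes), and 0 higher. Of 34 mTORC1 nutrient regulators 2 were called lower, DDIT4 and FNIP1 (-0.32), and 0 higher, and this share lay near that of all genes (5.88%, against 4.40%). FNIP1 was called with UAU library A or UAU library C left out and not with any other library left out, and mTORC1 regulators had 3 lower calls without UAU library A.

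A few members of the translation machinery were called. Of 35 initiation and elongation factors 2 were called higher and 3 lower (14.3% in all, against 7.62% of all genes). EEF1D, a subunit of the exchange factor for elongation factor 1, had 502, 535 and 456 CPM in UAU libraries, against 644, 701 and 699.7 CPM in control libraries (log2 fold change -0.45, SE 0.06, adjusted p = 2.71e-05). The helicase EIF4A2 averaged 183 ± 9.94 CPM in UAU and 143 ± 5.34 CPM in control (SD, n = 3 each; 0.36, edgeR adjusted p = 0.000577; 0.082 in the 12-library fit). EIF5A (0.27) was higher, and EIF3A (-0.25) and EEF1B2 (-0.22) were lower. EIF5A was not called without control library A or UAU library C, where 1 factor was called higher, and without UAU library A 5 factors were called lower. Small ribosomal subunit genes had 4 of 32 called lower (12.5%, against 4.40% of all genes) and 0 higher, with RPS12 at 3908, 3770 and 3407 CPM in UAU libraries, against 4411, 4540 and 4573 CPM in control libraries (-0.29, adjusted p = 0.00173). Large subunit genes had 3 of 46 called lower and 1 higher, a share near that of all genes (8.7% in all, against 7.62%). The higher gene, RPL30 (0.18), was not called when control library A, B or C or UAU library C was left out. Counts of called small subunit genes were 2 without UAU library C and 1 in the 12-library fit, and those of large subunit genes called lower were 1 without control library A, control library B or UAU library C, and 2 without control library C. Large subunit genes called higher were 5 without UAU library A and 2 without UAU library B. Ribosomal protein genes have many near-identical pseudogenes, so the counts of single members are uncertain.

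Most cell division genes that were called were lower in the UAU line. Of 36 mitosis genes 10 were called lower (27.8%, against 4.40% of all genes) and 1 higher, and the median log2 fold change was -0.105. TOP2A, the topoisomerase that untangles chromosomes, had 2702, 2615 and 2495 CPM in UAU libraries, against 3089, 3240 and 3090 CPM in control libraries (-0.27, SE 0.05, adjusted p = 0.00181). The kinetochore motor CENPE (-0.30, adjusted p = 0.00156), the kinase AURKA (-0.28, adjusted p = 0.00236) and the transcription factor FOXM1 (-0.31, adjusted p = 0.00291) changed by similar amounts. UBE2C, a ubiquitin-conjugating enzyme of mitotic exit, was higher (474 ± 39.7 CPM in UAU and 392.4 ± 9.6 CPM in control, SD, n = 3 each; 0.27, edgeR adjusted p = 0.00542). The log2 fold changes of the 10 lower genes ran from -0.31 to -0.19, and in the 12-library fit 0 of the mitosis genes were called at an adjusted p under 0.05. Of 35 DNA replication genes 3 were called lower (8.57%, against 4.40% of all genes) and 0 higher. FEN1, the flap nuclease, was the clearest (185, 196 and 163 CPM in UAU libraries, against 233, 233 and 238 CPM in control libraries; -0.37, adjusted p = 0.000552), and it was the only one of the 3 called when control library A, B or C or UAU library B or C was left out. In a bulk sample fewer cells in a cycle stage and less RNA per cell cannot be told apart.

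Single genes outside these lists changed as much as the sterol genes. The prostaglandin E synthase PTGES had 34.6, 32.4 and 29.9 CPM in UAU libraries, against 66.3, 66.9 and 74.1 CPM in control libraries (log2 fold change -1.10, SE 0.09, adjusted p = 3.5e-09), and it was the only called gene of 15 tested in the prostaglandin pathway (6.67%, against 7.62% of all genes). The orphan receptor GPRC5C had 13.3, 12.7 and 12.49 CPM in UAU libraries, against 28.4, 24.1 and 28.1 CPM in control libraries (-1.07, SE 0.12, adjusted p = 2.53e-06). ANKRD1, a nuclear ankyrin-repeat protein and a known YAP target, had 609.7, 652 and 529 CPM in UAU libraries, against 1077, 999.5 and 1027 CPM in control libraries (-0.80, SE 0.06, adjusted p = 3.5e-09). In all 3 genes the UAU libraries lay below the control libraries, as the way they were chosen requires. MAT2A, which makes S-adenosylmethionine, was lower (36.2 ± 4.20 CPM in UAU and 61.8 ± 4.32 CPM in control, SD, n = 3 each; -0.77, edgeR adjusted p = 5.62e-06), and so was the peptide hormone ADM (30.4 ± 2.29 CPM in UAU and 51.2 ± 2.15 CPM in control, SD, n = 3 each; -0.76, edgeR adjusted p = 5.84e-06). The developmental transcription factor SOX4 (-0.62, adjusted p = 2.21e-06) and the RNA-binding protein SFPQ (-0.44, adjusted p = 7.79e-06) were also lower in every UAU library. The transcript MIR22HG, host of a microRNA, fell by 0.72 on the log2 scale (adjusted p = 2.71e-05) and MALAT1, an abundant nuclear non-coding RNA, by 0.36 (adjusted p = 0.000104; 0.188 in the 12-library fit). With EPB41L4A-AS1 (-0.50), SNHG3 (-0.34) and CYTOR (-0.29) they made 5 of 25 non-coding and host transcripts called lower (20%, against 4.40% of all genes), with 0 higher and 1 called in the 12-library fit. The strand setting of the counting is not given in the sources used here, so reads of EPB41L4A-AS1 and of a gene on its other strand cannot be told apart.

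Among the genes that rose, PKIA, an inhibitor of protein kinase A, had 29.8, 25.4 and 21.9 CPM in UAU libraries, against 12.2, 15.7 and 12.8 CPM in control libraries (0.93, SE 0.13, adjusted p = 8.51e-05). PPP2R2C, a regulatory subunit of protein phosphatase 2A, had 57.8, 59.4 and 48.8 CPM in UAU libraries, against 34.4, 30.6 and 32.6 CPM in control libraries (0.76, SE 0.09, adjusted p = 7.85e-06). Every UAU library was above every control library in these genes, as the way they were chosen requires. XBP1, a transcription factor of the unfolded protein response, had 67.7, 64.3 and 71.0 CPM in UAU libraries, against 44.96, 44.7 and 47.0 CPM in control libraries (0.57, SE 0.08, adjusted p = 4.79e-05). NDRG1, a stress and hypoxia gene, averaged 212 ± 19.6 CPM in UAU and 152 ± 7.04 CPM in control (SD, n = 3 each; 0.48, edgeR adjusted p = 6.12e-05). Among called genes whose groups did not overlap and whose average was 3 log2 CPM or more, the other large rises were those of FAM173A (0.88), PCMTD1 (0.81), TMCC3 (0.80), the transmembrane protein TMEFF1 (0.79), the Rac regulator ARHGAP22 (0.74), the sorting protein PACS2 (0.71), TMEM159 (0.69), the collagen COL27A1 (0.69), the actin-binding protein TAGLN (0.69) and the mitochondrial enzyme NAGS (0.68). Their levels were low, with UAU means of 10.7 to 31.4 CPM and control means of 6.21 to 18.7 CPM. TMEFF1 was not called without control library C or UAU library B, and FAM173A, TMCC3, TMEM159 and TAGLN were not called in the 12-library fit.

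Matrix and invasion genes had more higher than lower calls: 5 of 39 tested were called higher (12.8%, against 3.22% of all genes) and 1 lower (2.56%, against 4.40%), and the median log2 fold change was 0.033. Among these were the protease inhibitor TIMP1 (0.34), the urokinase receptor PLAUR (0.31), the integrin ITGA3 (0.30) and the filament protein VIM (0.28), while the matrix protein THBS1 was lower (-0.24) but not when control library A, B or C was left out. VIM had 3136, 3661 and 3934 CPM in UAU libraries, against 2981, 2849 and 3027 CPM in control libraries, so UAU library A lay close to control, and VIM was not called without control library B or UAU library C. The count was 3 without control library B, and 1 in the 12-library fit. Of the 9 MDA-MB-231 markers 3 were called higher (FOSL1, PLAUR and VIM; 33.3%, against 3.22% of all genes) and 0 lower, of 7 tested luminal markers XBP1 was called higher and KRT18 lower, and of 1 fibroblast, 1 leukocyte and 4 endothelial markers tested 0 were called (adjusted p under 0.05, edgeR). Of 24 protein kinase A and cAMP genes 2 were called higher, PKIA and the anchoring protein AKAP12 (0.42), and 0 lower. This share was 8.33%, against 3.22% of all genes called higher and 7.62% called in all. Among epithelial junction and keratin genes 3 of 16 were called lower, KRT80 (-0.27), KRT18 (-0.19) and CLDN1 (-1.27), and KRTAP2-3 (0.89) was called higher (25% in all, against 7.62% of all genes). None of these 4 epithelial calls held in all 6 fits that left out 1 library, nor in the 12-library fit.

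The counts of the stress, immune and energy lists moved when 1 library was left out, and 7.62% of all genes were called. Of 25 endoplasmic reticulum chaperone genes 4 were called lower (CALR at -0.23, HSPA5 at -0.19, CANX at -0.18 and DNAJC3 at -0.25) and XBP1 alone higher (20% in all), and the count of lower genes was 5 without UAU library A, 0 without UAU library B, UAU library C or control library B, and 1 without control library A or C. Of 19 cytosolic heat shock genes 4 were called lower and 1 higher (26.3% in all), with BAG3 (-0.33) and DNAJB6 (-0.29) the largest falls, and the lower count was 1 without control library B and 2 without control library A or UAU library C. The 1 higher gene, HSPB1 (0.22), was not called when any of those 3 libraries was left out. Of 30 interferon response genes 3 were called lower and 0 higher (10%, against 4.40% of all genes called lower and 7.62% called in all). The 3 were IFIT1 (-0.59), IFIT2 (-0.50) and IFIT3 (-0.40), and the median of the list was -0.156. But 0 were called lower without control library A or UAU library B, and 1 without control library C or UAU library A. Of 28 immediate early genes 2 were called higher, FOSL1 (0.36) and JUN (0.19), and 3 lower, FOSL2 (-0.72), DUSP6 (-0.29) and IER5 (-0.27), 17.9% in all. Their summed level was 4900 to 5710 CPM in UAU libraries and 5510 to 5820 CPM in control libraries. Without UAU library A 6 immediate early genes were called lower and 3 higher, and without UAU library B, or any 1 control library, 1 was called higher. Of 19 metallothionein and oxidative stress genes 3 were called higher (MT2A at 0.25, FTL at 0.21 and FTH1 at 0.17) and 3 lower (SLC7A11, GCLM at -0.26 and TXNRD1 at -0.19), 31.6% in all, and both counts were 5 without UAU library A, with the lower count 0 without control library A and 1 without any other 1 library, and the higher count 1 without control library B or UAU library C. Respiratory chain genes had 4 of 46 called lower and 0 higher (8.7%, against 4.40% of all genes called lower and 7.62% called in all). These counts were 6 lower and 3 higher without UAU library A, 1 lower without UAU library C and 2 lower without control library C. Glycolysis and hypoxia genes had 3 of 33 called lower, ADM, the glucose transporter SLC2A1 (-0.34) and LDHA (-0.20), and NDRG1 higher (12.1% in all), and 3 higher without UAU library A. Antigen presentation genes had 1 of 15 called lower and 0 higher (6.67%, against 4.40% of all genes called lower and 7.62% called in all). This gene, HLA-E (-0.23), was not called without control library A, control library C or UAU library C.

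**Figure D3:**
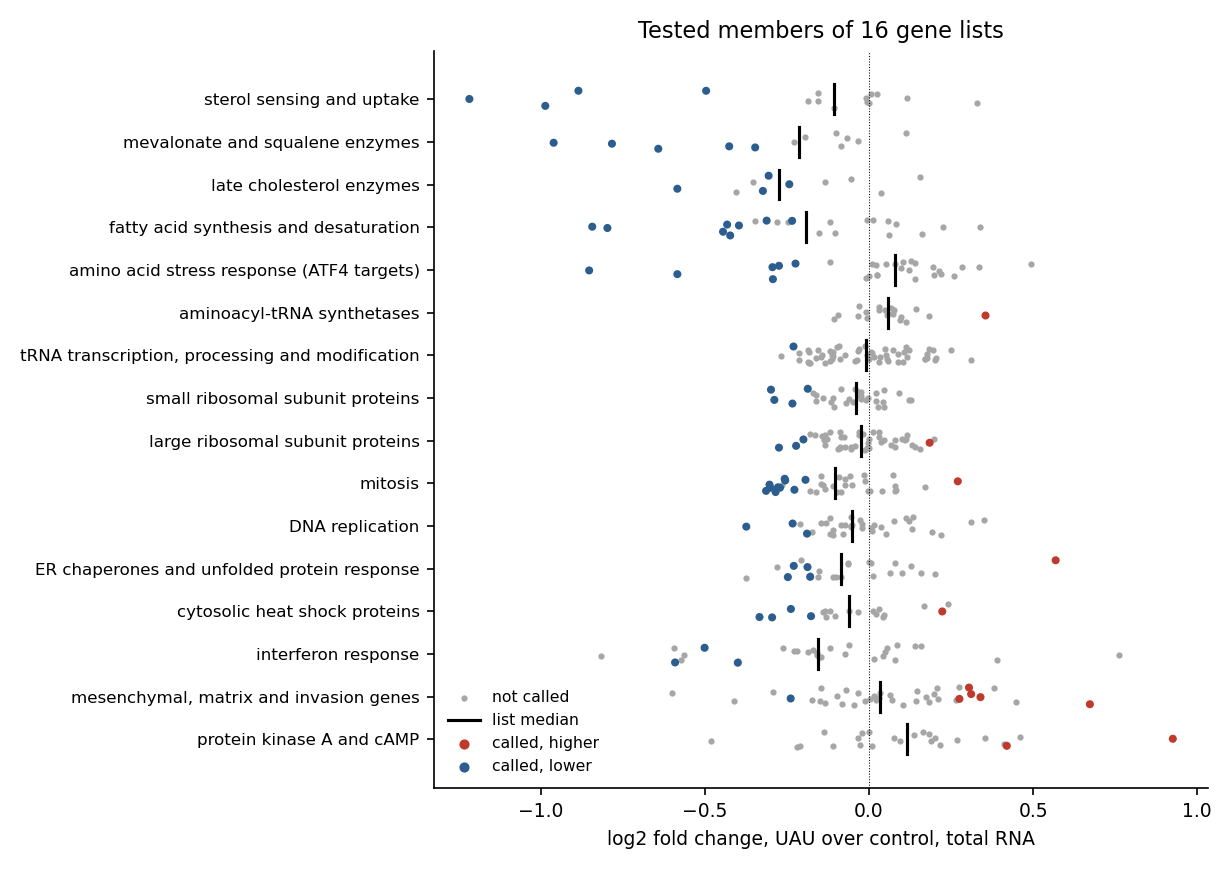
Log2 fold change of UAU over control in total RNA for every tested member of 16 gene lists, 1 point per gene, with called genes in colour and a black bar at each list's median. The sterol and fatty acid lists hold points far to the left (down to -1.22) and 0 called points to the right, while the ATF4 list has 6 called points to the left and a median of 0.079.

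The same genes were then read in RNA from the polysome gradients of the same lines, split into a low fraction, which holds monosomes and the lightest polysomes, and a high fraction, which holds heavier polysomes. These libraries are other libraries than those above, but they come from the same lines and may share cultures with them, which the labels do not say. Of 909 called genes measured in the low fraction 723 had the same sign there (79.5%), although 0 of 12035 genes were called in the low fraction by edgeR (1163 at an unadjusted p under 0.05, and 43 called by DESeq2). In the high fraction 710 of 912 had the same sign (77.9%), where 3106 of 11788 genes were called (26.3%), 1695 of them lower (14.4%). Among all genes tested in total RNA and measured there, 50.1% were below 0 in the low fraction and 50.5% in the high fraction. Of the 13 called sterol genes 13 were below 0 in the low fraction, with a median log2 fold change of -0.604, and 13 in the high fraction, with a median of -0.777, against -0.584 in total RNA. Of these, 12 were called lower in the high fraction. INSIG1 was at -0.97 in the low and -1.14 in the high fraction, SCD at -0.66 and -0.96, HMGCS1 at -0.66 and -0.75, and IDI1 at -0.47 and -1.05. The ribosomal protein gene RPS12, lower in total RNA, was higher in the high fraction (0.59, adjusted p = 4.82e-05), as was RPL22 (-0.27 in total RNA and 0.56 in the high fraction, adjusted p = 7.75e-05). Most ribosomal protein genes were above 0 in the high fraction. Only 3 of 32 small subunit genes (median 0.25) and 11 of 46 large subunit genes (median 0.199) were below 0 there. PTGES, clear in total RNA, was at -0.30 (adjusted p = 0.0739) in the high fraction. Whether an effect differed between total RNA and a fraction was not tested.

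The overexpression was also made on cells with CRISPRi against the GAU tRNA, and isoswitch against GAUi shares no library with UAU against control. There 0 of 12023 genes were called by edgeR, with 981 at an unadjusted p under 0.05 and a smallest adjusted p of 0.273. DESeq2 called 4 genes and the 12-library fit 14, and the wide spread among GAUi libraries stood beside this count: 12 genes were called without GAUi library A and 1 without GAUi library C. Of 915 genes called in UAU against control and measured here 613 had the same sign (67%), 261 of 386 among higher and 352 of 529 among lower genes, with 51.4% of all tested genes above 0. The median log2 fold change was 0.077 for the higher genes (0.362 in UAU against control) and -0.079 for the lower genes (-0.306). Genes chosen by their call in UAU against control have smaller values elsewhere by that choice alone. The part of the choice in these medians was not tested. Of the 13 called sterol genes 10 were below 0, with a median of -0.112. Of 22 genes with large changes, taken from called genes whose groups did not overlap and whose average was 3 log2 CPM or more, 14 kept their sign in isoswitch against GAUi, 21 in the low fraction and 21 in the high fraction.

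**Figure D4:**
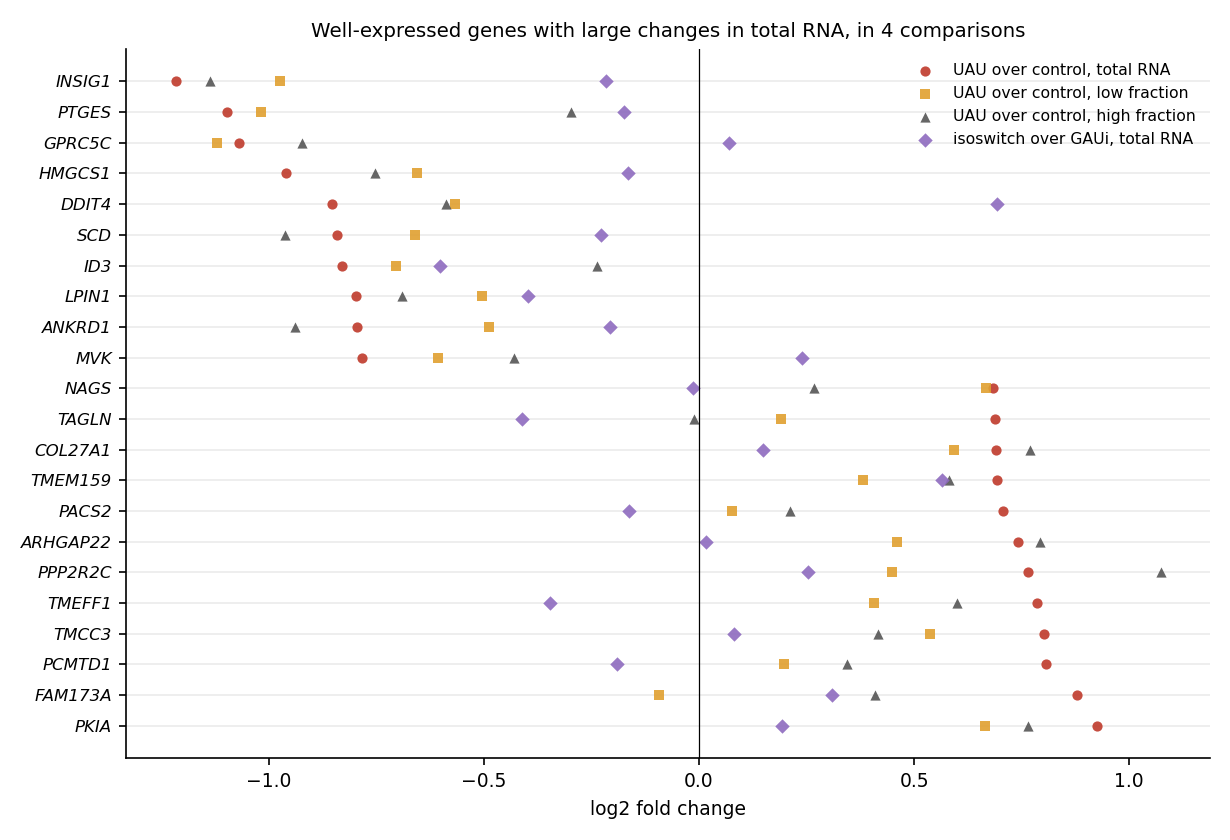
Log2 fold change (horizontal axis) of 22 genes with large changes in total RNA, taken from called genes without overlap of the groups and with an average of 3 log2 CPM or more, for UAU over control in total RNA (circles), low fraction (squares) and high fraction (triangles) and for isoswitch over GAUi in total RNA (diamonds). The diamonds lie nearer 0 than the circles for all 22 genes, and DDIT4 lies at -0.85 in UAU over control and at 0.69 in isoswitch over GAUi. The genes were chosen for large values in the comparison drawn as circles, a choice that alone brings smaller values elsewhere. The part of that choice in the distance was not tested.

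The difference between isoswitch over GAUi and UAU over control was tested directly as an interaction over the 12 libraries, and 3 of 12357 genes were called (0.0243%). DDIT4 had 58.0, 55.2 and 60.6 CPM in isoswitch libraries, against 39.9, 32.5 and 35.997 CPM in GAUi libraries, while in UAU libraries it was below control. The interaction, isoswitch over GAUi minus UAU over control, was 1.54 on the log2 scale (SE 0.14, adjusted p = 1.66e-05). DDIT4 averaged 65.1 CPM in UAU, 117 CPM in control, 57.9 CPM in isoswitch and 36.1 CPM in GAUi libraries, so the control line was highest. INSIG1 had 144, 138 and 138 CPM in isoswitch libraries, against 150.1, 176 and 167 CPM in GAUi libraries (interaction 1.00, SE 0.11, adjusted p = 0.000166). The control line thus stood above the other 3 lines, and GAUi lay between UAU and control. SCD averaged 147, 263, 149 and 177 CPM in UAU, control, isoswitch and GAUi libraries. In the same order HMGCS1 averaged 28.5, 55.5, 35.1 and 39.7 CPM, and GPRC5C 12.8, 26.9, 7.99 and 7.66 CPM. These genes too were highest in the control line. ANKRD1 (1183 CPM in GAUi and 1035 CPM in control) and ID3 (77.1 and 76.1 CPM) were not. Whether the UAU or the control line accounts for these differences was not tested. SLC48A1, a heme transporter, had 25.1, 24.3 and 20.8 CPM in UAU libraries, against 15.7, 14.8 and 15.1 CPM in control libraries, and 19.7, 16.99 and 17.8 CPM in isoswitch libraries, against 23.5, 26.001 and 25.3 CPM in GAUi libraries (interaction -1.07, SE 0.17, adjusted p = 0.0174). SCD (0.61) and MVK (1.02) had the next smallest p among the genes reported and were not called (adjusted p = 0.0603 for each). Without any 1 of the 12 libraries DDIT4 and INSIG1 stayed called. SLC48A1 lost its call in 7 of these 12 fits, without control library A, B or C, UAU library A or B, or isoswitch library B or C (adjusted p = 0.0677 to 0.108), with an interaction of -1.15 to -1.02 over the 12. DESeq2 called 43 interactions, and the count was 76 without GAUi library A, 44 without GAUi library B and 11 without GAUi library C.

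**Figure D5:**
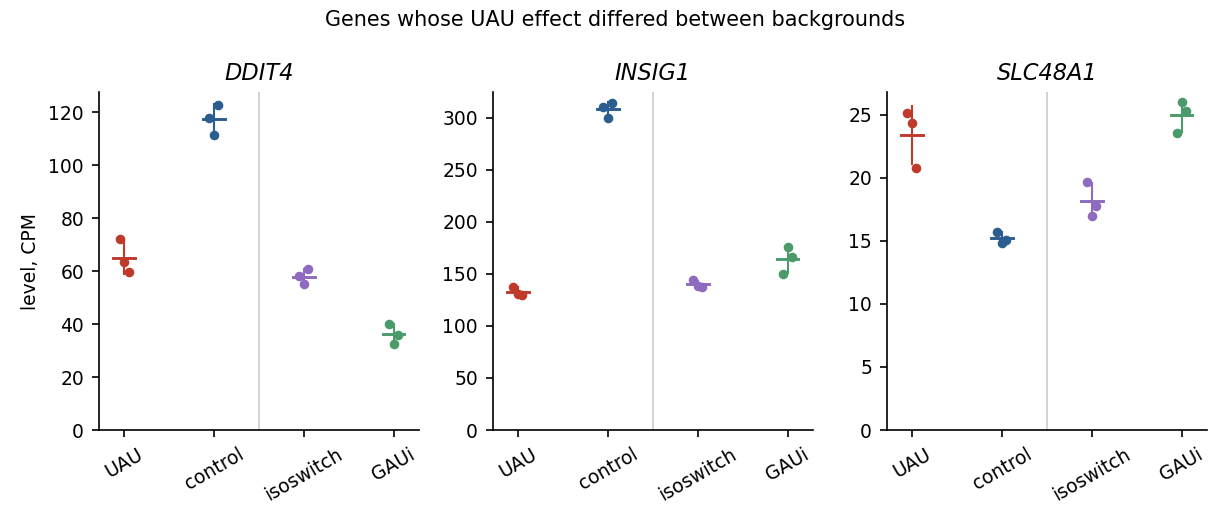
Level in CPM of DDIT4, INSIG1 and SLC48A1 in the UAU, control, isoswitch and GAUi lines, 3 libraries each, with a bar at the mean and a line of 1 SD each way. In the left pair of each panel (UAU and control) and the right pair (isoswitch and GAUi) DDIT4 and SLC48A1 move in opposite directions, and INSIG1 differs widely only in the left pair.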

How the data were processed

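Per the labels' protocols, 500 ng of RNA went into each QuantSeq library (Lexogen), a method that reads the 3' ends of polyadenylated RNA, so a level is not divided by length and genes were not compared with each other. The deposited files hold raw counts per gene symbol, 26485 symbols in each library. STAR, featureCounts and DESeq2, with build hg38, are the tools listed per the submitters' processing notes, and their versions, the annotation and the strand setting are not given there. RefSeq GRCh38.p14 matched 25320 symbols and was used for positions and promoters.

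Counts of the 3 UAU and 3 control libraries were filtered with filterByExpr, scaled with TMM and tested with edgeR 4.0.16 (glmQLFit and glmQLFTest, R 4.3.3), with Benjamini-Hochberg adjustment over all genes tested and a threshold of 0.05. SE was taken as the size of the log2 fold change over the root of its F statistic. Levels are CPM with TMM factors over the 12 total RNA libraries, as mean ± SD. Isoswitch against GAUi and the low and high fractions were fitted alike on 6 libraries each, and the interaction on 12. DESeq2 1.42.0, other scaling and filters, a replicate block, 9 or 12 libraries in 1 fit and leaving out each library were the alternatives. The pipeline was tested on simulated data. Reads without molecular identifiers are not independent molecules. With 3 libraries against 3 an exact permutation test cannot go below p = 0.1.

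The rule for named genes took the 12 largest rises and the 12 largest falls from called genes whose groups did not overlap and whose mean log2 CPM was 3 or more. Without these conditions it took the 6 next smallest p, up to 4 called members of each of 32 gene lists, all tested sterol genes and IARS. The 6 smallest interaction p were taken among genes with a mean log2 CPM of 3 or more. Called members of a list beyond these 4, and CHAC1, were named after their values were seen. Members and lists were chosen with earlier results of these data known. A few of the genes taken by this rule are left out of the text. The share of isoleucine codons was not analysed here.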

Additional observations from a re-analysis of the deposited data

Results flagged for a closer look

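The 3 results below stood out in a test of whether isoswitch over GAUi differed from UAU over control. This is a contrast of 4 lines, so the overexpression and any other difference between the lines cannot be told apart. For DDIT4 the interaction was 1.54 on the log2 scale, with a lower level in UAU than in control and a higher level in isoswitch than in GAUi. DDIT4 was highest in the control line, with averages of 65.1 CPM in UAU, 117 CPM in control, 57.9 CPM in isoswitch and 36.1 CPM in GAUi. For INSIG1 the interaction was 1.00, with a wide difference between UAU and control (133 CPM in UAU and 308 CPM in control on average). The difference between isoswitch and GAUi was narrow for INSIG1 (140.0 CPM in isoswitch and 164 CPM in GAUi). For SLC48A1 the interaction was -1.07, with a higher level in UAU than in control and a lower one in isoswitch than in GAUi. The SLC48A1 interaction was not called in 7 of the 12 fits that left out 1 library (adjusted p = 0.0677 to 0.108), while those of DDIT4 and INSIG1 were called in all 12. All 3 rest in part on the GAUi libraries, which differ from each other more than those of the other lines. The part of that spread in the results was not tested.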

How the results depend on the processing

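The 916 genes called for UAU against control became 113 with all 12 total RNA libraries in 1 fit, 1159 with 9 libraries without GAUi, 634 with DESeq2, 914 with RLE size factors, 1080 with no filter, 929 with a stricter filter, and 426 to 1291 without 1 library. With the replicate letter as a block 847 genes were called, of which 821 were among the 916. The letters did not pair the libraries: the correlation of deviations between same-lettered UAU and control libraries was 0.025 for A, -0.068 for B and 0.084 for C, over 9100 genes. Of 105 called genes under the naming rule 39 stayed called in the 12-library fit, 93 of 97 with a value in DESeq2, 100 with the block and 74 to 99 without 1 library, and 0 changed sign in any of these. Isoswitch against GAUi, with 0 called genes, gave 4 with DESeq2, 46 with no filter, 14 in the 12-library fit and 0 to 12 without 1 library. The interaction, with 3, gave 43 with DESeq2, 95 with no filter, 3 with the block and 2 to 76 without 1 library. The cause of these shifts was not tested.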

Other observations

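Several genes of TGF-beta and BMP signalling, a list chosen after the values were seen, moved in both directions. Of 47 tested members 7 were called higher and 8 lower (31.9% in all, against 7.62% of all genes, for a list chosen by its values), with a median log2 fold change of -0.036. The ligands TGFB2 and BMP4 were lower, with TGFB2 at 58.8, 49.2 and 51.4 CPM in UAU libraries, against 94.0, 84.8 and 82.0 CPM in control libraries (-0.71, adjusted p = 3.46e-06), and BMP4 at 190, 188 and 217 CPM in UAU libraries, against 284, 255.8 and 281 CPM in control libraries (-0.47, adjusted p = 4.52e-05). The BMP target genes ID1 (-0.36), ID3 (-0.83) and ID4 (-1.63) and the BMP-responsive transcription factor ATOH8 (-1.49) were lower too. The last 2 had low levels: ID4 averaged 1.37 CPM in UAU and 4.23 CPM in control, and ATOH8 3.76 CPM and 10.6 CPM. In the same list ID2 (-0.45, adjusted p = 0.466), SMAD6 (-0.30, adjusted p = 0.571) and SMAD7 (-0.50, adjusted p = 0.306) were not called. ID3 had 40.8, 47.3 and 40.2 CPM in UAU libraries, against 78.0, 77.2 and 73.0 CPM in control libraries. The TGF-beta target TAGLN (0.69), the ubiquitin ligase SMURF2 (0.43), the ligand BMP6 (0.30) and the secreted antagonist FSTL3 (0.67) were higher, while the related antagonist FST was lower (-0.53). All p are from edgeR over all genes tested. ID1 (adjusted p = 0.0606), TAGLN (adjusted p = 0.0569), BMP6 (adjusted p = 0.197) and FSTL3 (adjusted p = 0.0721) were not called in the 12-library fit. In isoswitch against GAUi, where 0 genes were called by edgeR (981 at an unadjusted p under 0.05, and 4 called by DESeq2), the log2 fold changes were -0.60 for ID3, 0.04 for ID1, -0.03 for ID4, -0.43 for ATOH8, 0.02 for TGFB2, -0.23 for BMP4, -0.29 for FST, -0.41 for TAGLN, 0.14 for SMURF2, 0.13 for FSTL3 and -0.09 for BMP6.

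Splicing genes, also listed after their values were seen, were lower without exception among those called: 12 of 45 SR proteins, hnRNPs and CLK kinases were called lower (26.7%, against 4.40% of all genes) and 0 higher, with a median of -0.126. SFPQ had 362, 382 and 358 CPM in UAU libraries, against 503, 495 and 498 CPM in control libraries, and SAFB2 (-0.45) and the kinase CLK1 (-0.45) changed by about as much. These 3 were the ones called in the 12-library fit. The other 9, among them SRSF1 (-0.22), SRSF2 (-0.24), HNRNPC (-0.23) and SON (-0.23), changed by 0.20 to 0.30 in size. Among secreted cytokines and growth factors IL11 (-0.55) and CSF1 (-0.67) were lower and PDGFA (0.32) higher, of 29 tested (10.3%, against 7.62% of all genes). PDGFA was not called in the 12-library fit (adjusted p = 0.162). IL11 had 104, 98.1 and 91.1 CPM in UAU libraries, against 140.1, 134 and 156 CPM in control libraries (edgeR adjusted p = 2.05e-05).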
